A study of Mus musculus with 4 samples.

Results

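The Krüppel-like factors (KLFs) were read in CD4+CD25+ T-cells that had been sorted for secretion of IL-10. The family is covered here by 9 genes, Klf2, Klf3, Klf4, Klf6, Klf7, Klf9, Klf10, Klf12 and Klf13, out of 18193 genes that at least 1 probe set of the array names alone. Every probe set that the platform annotation gives to one of these symbols and to no other gene was taken, which made 35 of the 45037 probe sets compared. The family was chosen by looking at IL-10+ minus IL-10- differences of these same arrays. Those differences are thus given for its genes as a description, and nothing is supported with them. No p-values of KLF probe sets are printed, and calls of them by adjusted p are likewise only a description. Klf2 and Klf10 were read by 1 probe set each, and the other members by 2 to 7.

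The 4 samples, each on 1 Affymetrix mouse array, were 2 of IL-10+ and 2 of IL-10- cells, all CD4+CD25+, and the donor mice were C57BL/6 aged 6 to 12 weeks. All mice had received CD28SA, the superagonistic CD28 antibody D665, which drives expansion of regulatory T-cells (Tregs). On day 3 CD4+CD25+ cells of the lymph nodes were taken, and before the sort they were stimulated overnight with antibodies to CD3 (at 2 µg/ml) and CD28 (at 5 µg/ml) in the presence of human IL-2 at 200 U/ml. There was no unstimulated group, and CD25 is also carried by activated conventional T-cells, so the samples are CD25+ cells and not cells sorted on Foxp3. The sources used here do not say whether the samples of a group had separate mice or sorts behind them, so the p-values rest on a spread between arrays that could be purely technical.

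KLFs are transcription factors whose zinc fingers at the end of the protein bind GC-rich DNA such as the CACCC box. Outside that domain they fall into groups: one mainly activates and works with acetyltransferases such as Crebbp and Kat2b, one represses through the corepressor CtBP, and one recruits the Sin3 corepressor with its histone deacetylases. In T-cells Klf2 is known for keeping resting cells quiescent and for switching on S1pr1, the receptor that lets lymphocytes leave lymph nodes, and it is itself under the control of Foxo1 and of the kinase Mapk7 (ERK5) with MEF2 factors.

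The promoters of 4 genes are shown first, because the family acts through CACCC boxes and Klf2 is a known target of MEF2 factors. They are the 250 bases before the RefSeq gene start (build GRCm38.p6), written in the direction of the gene, of Klf2 (chr8:72318812-72319061, plus strand), Klf3 (chr5:64803271-64803520, plus strand), Klf6 (chr13:5861239-5861488, plus strand) and the homing gene Itgb7 (chr15:102231936-102232185, minus strand). Capitals mark CACCC on either strand (CACCC or GGGTG) and a MEF2-type motif, CTA and TAG with any 4 bases between them, which reads the same on both strands.
Klf2: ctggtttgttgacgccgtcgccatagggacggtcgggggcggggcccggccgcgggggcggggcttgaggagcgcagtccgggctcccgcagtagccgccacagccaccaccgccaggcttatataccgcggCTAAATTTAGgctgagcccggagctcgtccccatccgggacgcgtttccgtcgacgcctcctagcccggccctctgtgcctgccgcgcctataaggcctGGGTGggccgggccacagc
Klf3: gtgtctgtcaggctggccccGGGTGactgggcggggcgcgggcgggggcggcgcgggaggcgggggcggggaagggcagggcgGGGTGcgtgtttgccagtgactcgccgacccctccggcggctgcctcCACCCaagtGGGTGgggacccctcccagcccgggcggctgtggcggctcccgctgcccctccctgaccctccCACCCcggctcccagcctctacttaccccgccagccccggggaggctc
Klf6: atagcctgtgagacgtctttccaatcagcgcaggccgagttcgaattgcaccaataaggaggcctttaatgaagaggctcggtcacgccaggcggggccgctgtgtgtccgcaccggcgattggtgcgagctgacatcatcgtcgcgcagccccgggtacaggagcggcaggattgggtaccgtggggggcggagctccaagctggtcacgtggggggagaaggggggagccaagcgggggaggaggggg
Itgb7: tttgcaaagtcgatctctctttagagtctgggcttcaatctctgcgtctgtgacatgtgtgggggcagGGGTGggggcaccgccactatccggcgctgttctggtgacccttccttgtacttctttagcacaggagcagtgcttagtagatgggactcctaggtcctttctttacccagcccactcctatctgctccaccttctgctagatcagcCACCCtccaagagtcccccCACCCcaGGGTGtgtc
Klf2 held 1 match to the MEF2-type motif, which was found in 3.2% of the 32851 promoter windows of the same length, and 1 CACCC match, found in 52% of them. Klf3 held 5 CACCC matches, the most of the 8 members with a window, and 0.667% of all windows held 5 or more. Itgb7 held 4, and 2.14% of windows held 4 or more. It is shown because it held the most of the 3 homing genes with a window, since S1pr4 held 1 and Il7r held 0. Klf6 held neither motif. Of the 8 members with a window in the table, 6 had at least 1 CACCC match. Klf7 had 3, Klf9, Klf12 and Klf13 had 1 each, and Klf4 had none. The motifs do not overlap each other in the windows shown. The shares are over all windows and were not matched for base composition. The matches are letters in a window and were not measured as bound sites, and the table has no entry for Klf10, S1pr1 and Ccr7.

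The sort itself was visible in Il10, which stood at 12.02 and 12.00 on the IL-10+ arrays and at 10.41 and 10.37 on the IL-10- arrays (values read as log2, as are all levels and differences below). Both groups carried T-cell and Treg transcripts. Foxp3, the defining Treg factor, was lower in IL-10+ cells (difference -0.72, limma adjusted p = 0.000174). It read 10.86 and 10.79 there, against 11.54 and 11.55 in IL-10- cells. Of 6 Treg markers, by brightest probe sets, Foxp3 and Ikzf2 (-0.55) were lower and Ctla4 was higher (0.87). Il2ra, Tnfrsf18 and Icos did not pass. Of all 18193 genes by brightest probe set, 8.37% were higher and 22.9% lower at an adjusted p under 0.05. The summed signal of the 6 (linear scale) was 39307 to 40665 in IL-10+ and 36338 to 39265 in IL-10- samples. Markers of B cells and plasma cells were lower in IL-10+ samples for 9 of 12 genes and higher for 0. Their summed signal on the linear scale was 6096 to 6319 in IL-10+ and 17163 to 18752 in IL-10- samples. The largest differences of this list, by brightest probe sets, were in Igha (-5.45), Mzb1 (-2.75) and Jchain (-2.75). Igha read 7.18 and 7.24 in IL-10+ samples and 12.58 and 12.74 in IL-10- samples. Of 7 markers of monocytes and macrophages, 3 were higher in IL-10+ samples (Cd68, Cd14 and Csf1r) and 0 lower, with summed signals of 1613 to 1647 in IL-10+ and 1071 to 1088 in IL-10- samples, while Lyz2, Adgre1, Itgam and Fcgr1 did not pass. Of 5 NK cell markers, 3 were lower (Klrd1, Klrk1 and Eomes) and 1 higher (Klrc1), with summed signals of 570.4 to 579.1 in IL-10+ and 559.5 to 581.7 in IL-10- samples. Per the study's methods, CD4+ cells were enriched by depleting other cells on magnetic beads. They were then picked by CD25 and sorted by flow cytometry for IL-10, and the values above were measured after these steps. The 5' probe sets of 4 bacterial transcripts added to the RNA were higher on IL-10+ arrays by 1.11 (median), against 0.09 at their 3' ends. That 5' difference bears on any gene whose probe sets lie at different distances from the 3' end, the distances of the KLF probe sets are not in the files used, and the part that it or the transcripts of other cell types play in the results below was not tested.

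Klf2 and Klf4 were lower in IL-10+ cells on every probe set that reads them, Klf6 was higher on 4 of its 5, Klf10 differed little on its 1 probe set, and the readings of Klf3, Klf7, Klf9, Klf12 and Klf13 lay on both sides of 0. Differences ran from -1.51 (Klf2) to 1.87 (Klf6). Among all 35 probe sets, 7 were higher and 7 lower at an adjusted p under 0.05 (limma over all 45037 probe sets), where 29.8% of all probe sets were called, 13.6% higher and 16.2% lower. After each array was centred on its median, 5 of the 35 were higher and 10 lower, beside 4668 higher and 10076 lower of all probe sets (6133 and 7307 without centring). Both IL-10+ arrays lay above both IL-10- arrays for 13 of the 35 (32.5% of all probe sets) and below them for 15 (30.5% of all probe sets). Over all probe sets the groups did not overlap for 63.0%, so separation alone is common here. The median difference was -0.03 over the 35 and 0.01 over all probe sets. The nearest probe set inside the call was the brightest of Klf12 (0.33) and the nearest outside it was one of Klf7 (-0.31).

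**Figure D1:**
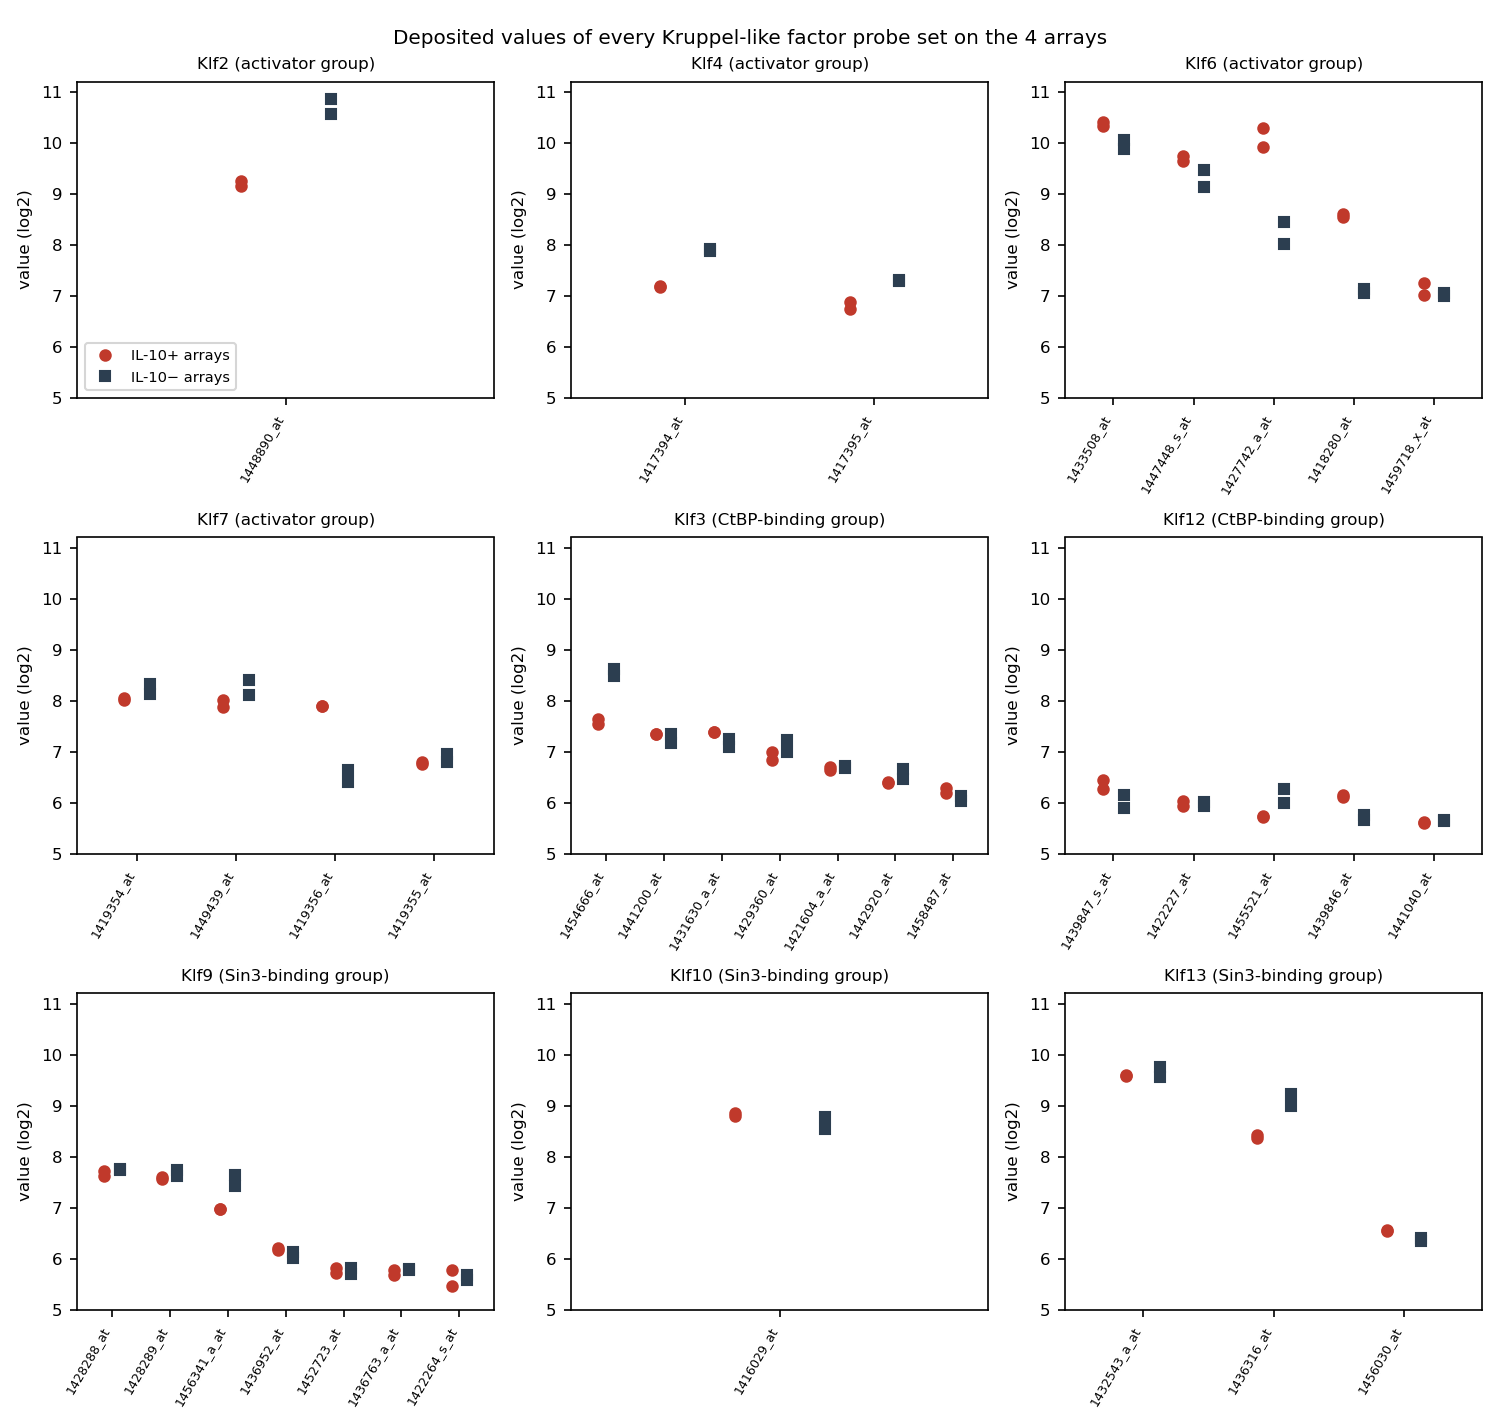
Deposited value (log2, vertical axis) of each KLF probe set (horizontal axis, bright to dim within a gene) on the 2 IL-10+ arrays (circles) and the 2 IL-10- arrays (squares). Klf2 and both probe sets of Klf4 lie lower on the IL-10+ arrays, and the 3rd and 4th probe sets of Klf6 and the 3rd of Klf7 lie far higher, beside brighter ones of the same gene with smaller differences.

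Klf2 had the lowest difference of the family. Its probe set 1448890_at read 9.14 and 9.26 on the IL-10+ arrays, against 10.86 and 10.56 on the IL-10- arrays. The IL-10+ values lie close together and more than 1 log2 unit below the lower IL-10- value. This describes differences on which the family was chosen, and the spread between replicates could be purely technical. The difference was -1.51 ± 0.10 (standard error from limma, n = 2 each), 2.84-fold lower if the scale is log2 and 4.51-fold lower if it is a natural log. The files do not name the base.

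Klf4, a relative of Klf2 that restrains T-cell proliferation and is known as a reprogramming factor, differed the same way. The brighter probe set, 1417394_at, read 7.17 and 7.19 in IL-10+ cells, against 7.87 and 7.91 in IL-10- cells. The dimmer one, 1417395_at, read 6.74 and 6.87 against 7.31 and 7.28. Neither overlapped, with differences of -0.71 ± 0.06 and -0.49 ± 0.07 (SE), so both readings of the transcript were lower in IL-10+ cells.

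Klf6, an activator that is induced early by injury and cytokine signals, went the opposite way from Klf2 and Klf4. Its brightest probe set, 1433508_at, read 10.33 and 10.41 in IL-10+ cells and 9.89 and 10.05 in IL-10- cells (0.40 ± 0.08, SE). The probe set 1427742_a_at read 9.91 and 10.28 against 8.01 and 8.45, and 1418280_at read 8.54 and 8.60 against 7.14 and 7.05. These 2 probe sets put the difference at 1.87 ± 0.16 and 1.47 ± 0.07 (SE), far above that of the brightest. A further one, 1447448_s_at, stood at 0.40 ± 0.11, and 1459718_x_at overlapped between the groups (7.01 and 7.25 against 7.06 and 6.999). Both 1447448_s_at and 1459718_x_at can match other genes. All 5 readings were thus above 0, from 0.10 to 1.87, and their mean over the gene was 0.85. The added transcripts differed by 0.62 to 1.96 at the 5' end on the same arrays, and their part in this disagreement was not tested.

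Klf7, an activator studied mainly in neurons and blood cells, was read in contrary ways. Of its 4 readings, 3 were slightly lower in IL-10+ cells, by 0.10 to 0.31, among them the brightest, 1419354_at (8.05 and 8.02 against 8.13 and 8.33). The probe set 1419356_at read 7.89 and 7.90 in IL-10+ cells, against 6.41 and 6.63 in IL-10- cells, a difference of 1.37 ± 0.08 (SE). A single reading out of 4 thus carried the high value, and the direction for the gene is not settled by these arrays.

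The CtBP-binding members also split by probe set. Klf3 is a repressor that often competes with activating KLFs for CACCC boxes. Its brightest probe set, 1454666_at, was lower, with 7.55 and 7.64 in IL-10+ cells and 8.49 and 8.62 in IL-10- cells (-0.96 ± 0.07, SE). The other 6 probe sets of Klf3 lay between -0.19 and 0.21, and their groups lay on either side or overlapped. Klf12, first described as a repressor of the AP-2 alpha gene, was dim throughout, at values from 5.61 to 6.44. Its probe set 1439846_at read 6.16 and 6.11 in IL-10+ cells against 5.75 and 5.65 in IL-10- cells (0.43 ± 0.07, SE). The probe set 1455521_at read 5.72 and 5.73 against 5.99 and 6.28 (-0.41 ± 0.10, SE), so 2 readings of the same gene pointed apart by about equal amounts.

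The Sin3-binding members differed little on their brightest probe sets. Klf10, known as TGF-beta-inducible early gene and as a partner of Itch in mouse Tregs, read 8.80 and 8.85 in IL-10+ cells and 8.55 and 8.78 in IL-10- cells (0.16 ± 0.09, SE). The IL-10- arrays lay farther apart from each other than the groups did. Klf13, which binds the Ccl5 promoter in activated T-cells, read 9.59 and 9.60 on 1432543_a_at against 9.77 and 9.55 and overlapped. On 1436316_at it read 8.36 and 8.43 in IL-10+ cells, against 8.98 and 9.22 in IL-10- cells (-0.71 ± 0.09, SE), while 1456030_at stood at 0.18 ± 0.06. Klf9, a target of thyroid and glucocorticoid hormone, differed by -0.08 on its brightest probe set. On 1456341_a_at it differed by -0.56 ± 0.08 (6.97 and 6.97 against 7.43 and 7.64). Its other 5 probe sets lay between -0.10 and 0.12.

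**Figure D2:**
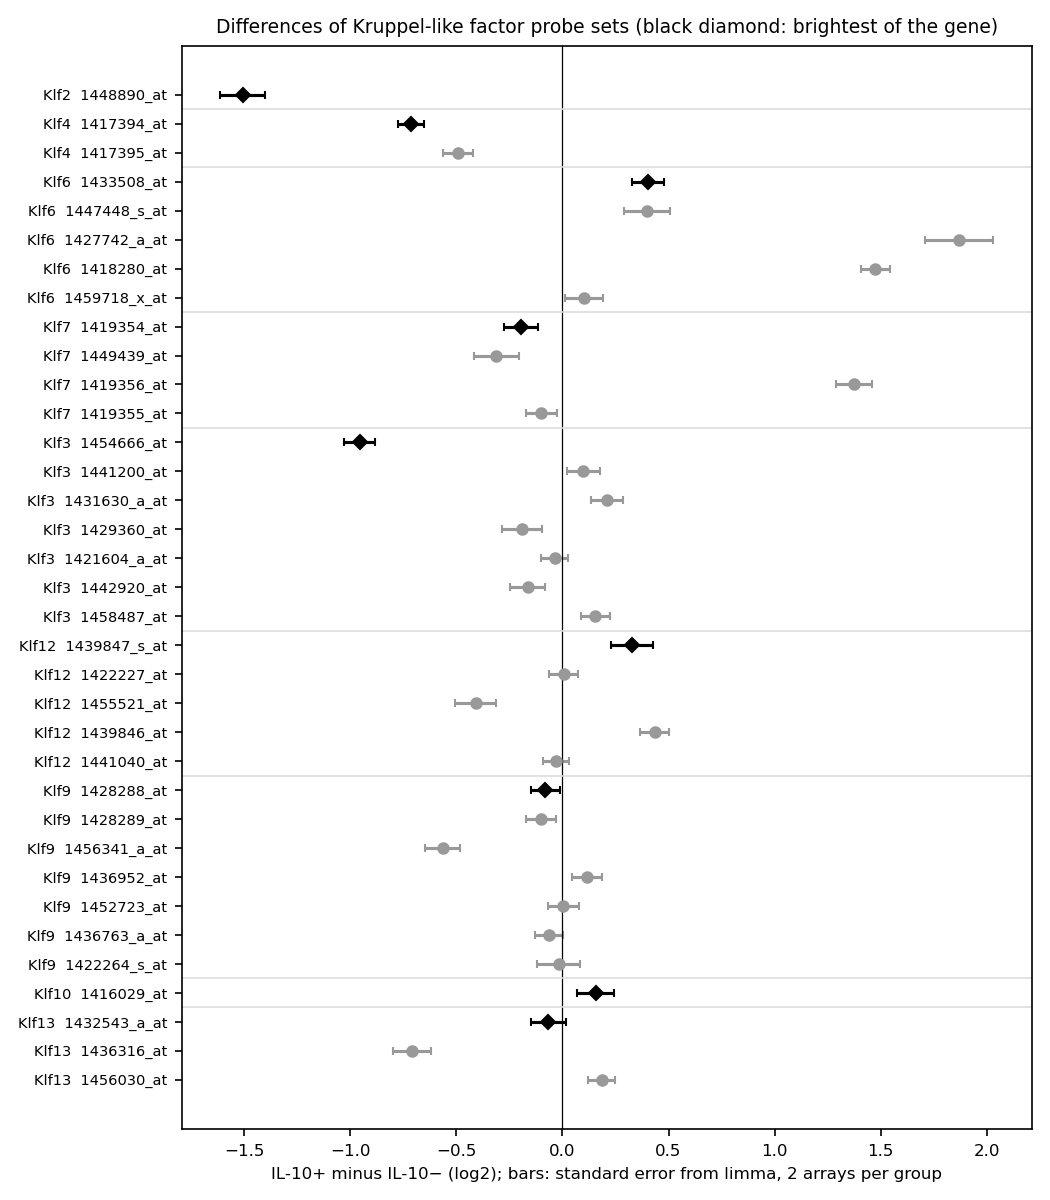
IL-10+ minus IL-10- difference (log2, horizontal axis) of each KLF probe set, with standard errors from limma (2 arrays per group) and the brightest probe set of each gene as a black diamond. Klf2 and Klf4 lie left of 0 and Klf6 right of it, while Klf12 runs from -0.41 to 0.43 and Klf7 from -0.31 to 1.37.

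By the brightest probe set of each gene, differences were -1.51 in Klf2, -0.96 in Klf3, -0.71 in Klf4, 0.40 in Klf6 and 0.33 in Klf12. The Klf12 probe set can match other genes. Klf7, Klf9, Klf10 and Klf13 lay between -0.20 and 0.16. As a count, 2 of the 9 were called higher and 3 lower. Of 18193 genes, 31.3% were called by the same rule, 8.37% higher and 22.9% lower. Within 1 gene the spread between the lowest and highest difference reached 1.77 for Klf6, 1.69 for Klf7 and 1.17 for Klf3, against 0.22 for Klf4. The genes nearest to Klf2 over the 4 arrays (Euclidean distance of values centred on each gene's mean, brightest probe sets of all genes) were Sbk1 (0.16), H2-DMa (0.21) and Bach2 (0.26). Bach2, a repressor that favours resting and memory states of lymphocytes, differed by -1.76, and H2-DMa acts in antigen presentation of B cells and other cells. Nearest to the brightest probe set of Klf6 were Zfp52 (0.01), Synrg (0.02) and Snx22 (0.02), distances that say only that 4 numbers lay close.

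Of the homing genes known to depend on KLF2 in mouse T-cells, 4 of 5 measured fell in IL-10+ cells and 1 rose. Their median difference was -0.86, against -0.01 over the brightest probe sets of all genes. By the same probe sets, 22.9% of all genes fell and 8.37% rose. S1pr1, the sphingosine-1-phosphate receptor of lymph node exit, stood at 8.15 and 8.01 in IL-10+ cells and at 8.84 and 8.80 in IL-10- cells (-0.74, adjusted p = 0.000255 from limma). S1pr4, a related receptor of lymphocytes, read 10.11 and 10.15 against 11.02 and 11.08 (-0.92, adjusted p = 6.47e-05 from limma). The fall was of like size in Itgb7, the integrin chain of gut homing, which read 10.48 and 10.45 in IL-10+ cells against 11.31 and 11.34 in IL-10- cells (-0.86, adjusted p = 7.52e-05 from limma). Ccr7, the lymph node homing receptor, had the largest fall of the list, with 7.27 and 7.33 in IL-10+ cells against 9.57 and 9.59 in IL-10- cells (-2.28, adjusted p = 2.14e-06 from limma). In each of these genes the replicates of a group lay much closer to each other than the groups did. Il7r, the receptor chain of the survival cytokine IL-7, went the other way on both of its probe sets, by 0.54 (11.46 and 11.48 against 10.93 and 10.93) and 1.83. These calls held under every alternative run, from quantile normalization to leaving out any single array. Ccr7 also marks naive B cells, and the B-cell markers above were lower in the same IL-10+ samples. Their part in the result was not tested.

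Of the receptors that rise when mouse T-cells lose KLF2, 2 of 4 measured rose (8.37% of all genes), by small amounts, and 0 fell (22.9%). Ccr3 differed by 0.40 and Ccr6 by 0.28, and neither passed in every setting: without IL-10+ replicate 2 the adjusted p from limma was 0.0831 for Ccr3 and 0.118 for Ccr6. Ccr6 was also lost without IL-10+ replicate 1 (0.125), without IL-10- replicate 4 (0.071) and after median centring (0.0651). Cxcr3 and Cxcr5 differed by -0.09 and 0.04 and did not pass.

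Among factors that act upstream of Klf2 and Klf4, 5 of 9 fell in IL-10+ cells and 0 rose by their brightest probe sets. Their median was -0.33, and of all genes 22.9% fell and 8.37% rose. Foxo1, the forkhead factor that drives Klf2 in resting T-cells, fell to 9.90 and 9.88, against 10.88 and 10.94 in IL-10- cells (-1.02, adjusted p = 4.00e-05 from limma), and 3 of its 4 probe sets fell. Mef2d, one of the MEF2 factors that bind the Klf2 promoter, fell to 8.14 and 8.05, against 9.03 and 9.04 (-0.94, adjusted p = 6.48e-05 from limma), and 2 of its 3 probe sets fell. Mef2c, which is also a B-cell factor, was dim and fell by 0.63, while Mef2a differed by 0.16 on its brightest probe set and rose on 4 of 6. Map2k5, the kinase that activates Mapk7, fell by 0.35 on its brightest probe set and rose by 0.30 on its dimmest. Mapk7 itself differed by -0.11 and did not pass. Averaging all probe sets of each gene gave 5 lower and 2 higher in this list.

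**Figure D3:**
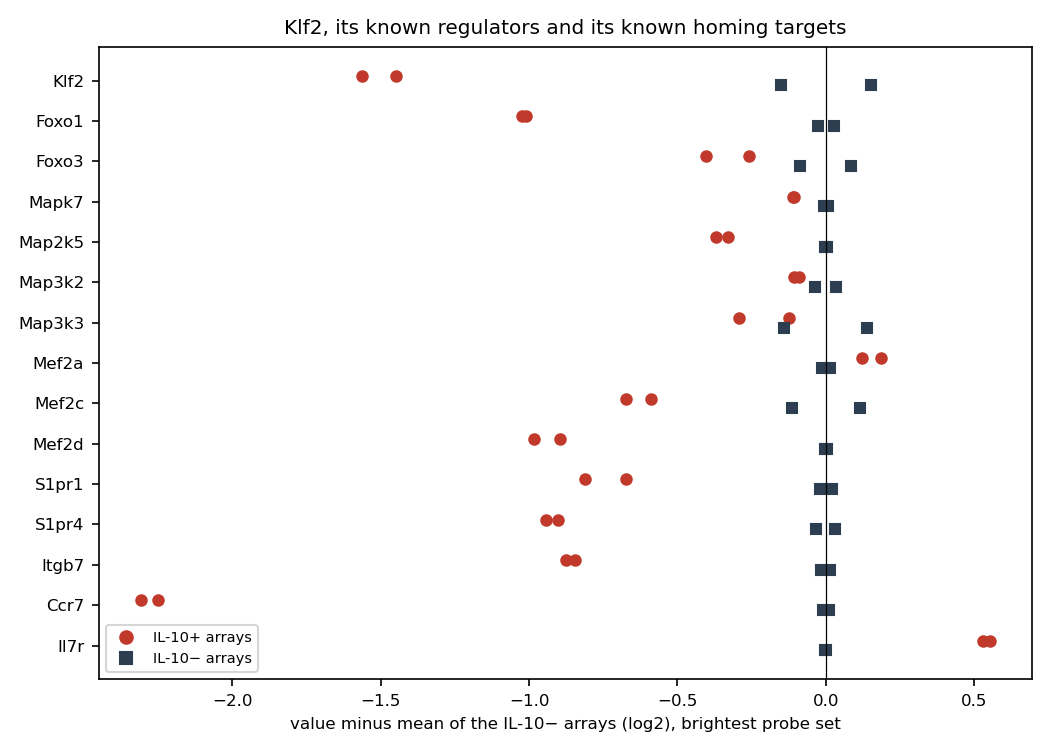
Values of Klf2, of factors known to act upstream of it and of its known homing targets (log2, minus the mean of the IL-10- arrays, brightest probe sets), for the 2 IL-10+ arrays (circles) and the 2 IL-10- arrays (squares). The IL-10+ arrays lie left of both IL-10- arrays for Klf2, Foxo1, Mef2d, S1pr1, S1pr4, Itgb7 and Ccr7, and right of them for Il7r.

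The other KLF genes and the related SP factors, which bind the same GC-rich sites, moved little apart from a pair of SP genes. Of 14 measured, 2 rose (8.37% of all genes) and 2 fell (22.9%), with a median of 0.00. Sp3 read 8.21 and 8.29 in IL-10+ cells against 6.71 and 6.78 in IL-10- cells (1.51, adjusted p = 1.33e-05 from limma, 1 probe set). Sp1, the founding member, rose by 1.26 on its brightest probe set (11.00 and 11.04 against 9.46 and 10.07) but fell by 0.28 on the next one. Among the KLFs outside the 9, Klf16 fell by 0.28 and Klf11 fell by 0.25, neither of which passed without IL-10+ replicate 1 (adjusted p = 0.239 for Klf16 and 0.0688 for Klf11 from limma) or without IL-10- replicate 3 (0.0705 and 0.0686). Klf11 was also lost without IL-10+ replicate 2 (0.236). Klf1, Klf5, Klf14, Klf15 and Klf17 were dim, with values near the array medians of 6.31 to 6.41 or below, apart from 6.52 to 6.64 for Klf14, and differed by -0.09 to 0.06 on their brightest probe sets.

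Of the cofactors through which KLFs act, 8 of 13 fell in IL-10+ cells (22.9% of all genes) and 2 rose (8.37%). Their median was -0.30. The number that fell was 6 after quantile normalization, 6 with the mean over probe sets, and 5 without IL-10+ replicate 1 or without IL-10+ replicate 2. The acetyltransferase gene Kat2a fell by 0.74 on its brightest probe set, and its other 2 differed by 0.15 and -0.03 and did not pass. Kat2b fell by 0.51 on its brightest probe set, which can match other genes, and rose by 0.41 on its dimmest. Ctbp1, the corepressor of Klf3 and Klf12, fell by 0.56 (adjusted p = 0.000649 from limma). Its paralog Ctbp2 rose by 0.48 on 1 of 2 probe sets. The deacetylase gene Hdac3 rose by 0.50 on its only probe set, which can match other genes. The scaffolds used by Klf9, Klf10 and Klf13 also fell. On brightest probe sets Sin3a, by one that can match other genes, fell by 0.30 and Sin3b by 0.36. Without IL-10+ replicate 1 neither passed (adjusted p = 0.0548 for Sin3a and 0.0756 for Sin3b from limma), nor did Sin3a without IL-10+ replicate 2 (0.113), and its probe set with the next highest mean differed by 0.0070. Bright probe sets as a whole lay lower in IL-10+ cells, with a median difference of -0.17 among the 5601 that averaged at least 9.

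Ubiquitin ligases that are known to act on KLF proteins changed in both directions, 4 of 8 lower (22.9% of all genes) and 2 higher (8.37%). Smurf2 fell by 0.46 on its brightest probe set but rose on the other 2 (0.085 as a mean over the 3), and Smurf1 fell by 0.36 on 1 of 2. Fbxw7 fell by 0.42, on a probe set that can match other genes, and differed by -0.12 on the one without that mark. Wwp1, a ligase of KLF2, rose by 0.28, and Itch, the partner of Klf10, rose by 0.22 on its brightest and on all 4 of its probe sets, up to 0.68. Neither Wwp1 nor the brightest probe set of Itch passed after median centring (adjusted p = 0.0809 and 0.161 from limma), or without IL-10+ replicate 1 (0.107 and 0.237), IL-10+ replicate 2 (0.116 and 0.134) or IL-10- replicate 3 (0.056 and 0.0591).

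A list of TGF-beta signalling genes, a pathway that induces Klf10, together with Foxp3, which Klf10 is known to act on, held 5 of 8 genes lower and 0 higher by brightest probe sets, with a median of -0.45. Foxp3, given above as a Treg marker, was one of the 5. Of all genes, 22.9% were lower and 8.37% higher by the same rule. Smad3 fell by 0.79, Tgfbr2 fell by 0.61 and Smad4 fell by 0.54. Dimmer probe sets of the same genes rose, by 0.29 for Smad3, 0.42 for Tgfbr2 and 0.44 for Smad4, and with the mean over probe sets 3 genes of the list were lower and 2 higher. Tgfbr1 fell by 0.36 on its brightest probe set and rose on the other 2, by 0.77 and 0.96. Tgfb1, the ligand, differed by 0.46 on its brightest probe set, which did not pass, and rose by 0.43 on its other one. Contrary readings of one gene, as in Klf7 and Klf12, were thus also found among these genes.

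**Figure D4:**
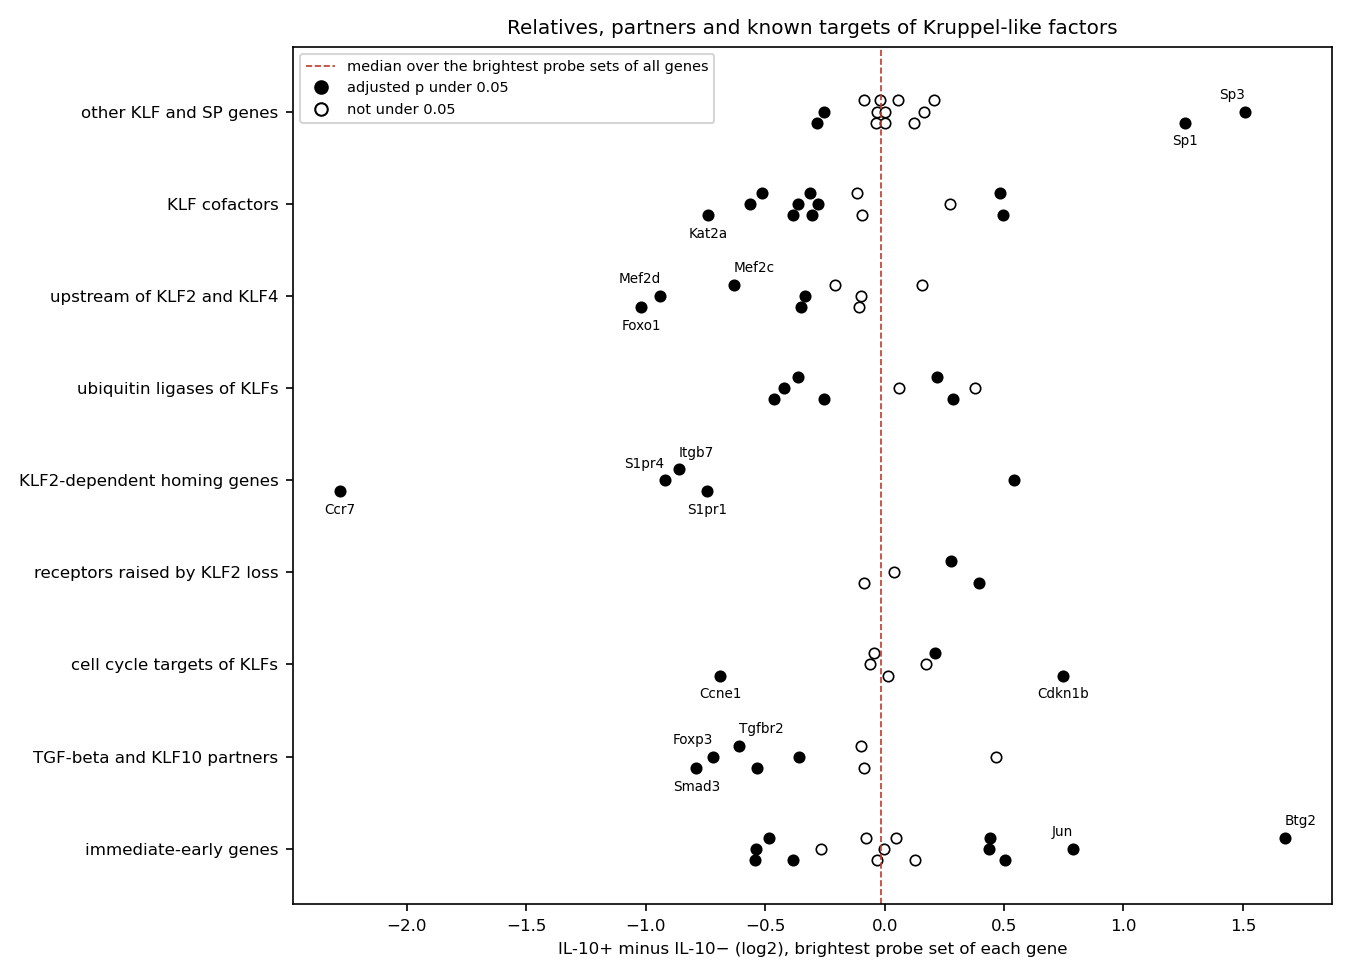
IL-10+ minus IL-10- difference (log2, horizontal axis) of the brightest probe set of each gene in 9 lists of relatives, partners and known targets of KLFs, filled where the adjusted p was under 0.05, with genes past 0.6 named. The homing list has 4 genes left of -0.7 and Il7r at 0.54, and the list of other KLF and SP genes clusters near the dashed median of all genes (-0.01) apart from Sp1 and Sp3.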

How the data were processed

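RNA of 2 IL-10+ and 2 IL-10- samples was read on 4 Affymetrix mouse arrays. The authors normalized intensities by variance stabilization in R and deposited a single value for each probe set on each array, taken here to be log2. How probes were summarised is not given in the sources used here, and a legend of the study uses the natural log for fold changes. From these values 64 control probe sets were set aside and limma 3.58.1 in R 4.3.3 (lmFit, eBayes, two-sided, Benjamini-Hochberg) compared 45037 probe sets, with 5.44 prior and 2 residual degrees of freedom. It was tested on simulated data first. With 2 arrays against 2, an exact permutation test of 1 gene cannot go below p = 0.333. The threshold was an adjusted p of 0.05. Rose and fell are used of genes outside the 9 only where this was met.

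Gene names came from the platform annotation, and 34945 probe sets name 1 gene. The symbols of the 9 members matched RefSeq by gene identifier. The brightest probe set of a gene has the highest mean over the 4 arrays. Named were all probe sets of the members, up to 4 called genes of each list by size, all homing genes, the 3 nearest genes to the members with the lowest and highest difference, and Il10. Other genes named were chosen after their values were seen. The members and lists were chosen with earlier results of these data known. Genes on the lists but not in the annotation used, such as Klf8, are not analysed here. Promoters are from RefSeq, GRCm38.p6. Variance stabilization compresses the differences of dim probe sets, and the number of arrays limits the precision. Figures used Python 3.11.15 and matplotlib 3.10.9. The alternatives tried were median centring, quantile normalization, a trend in the prior, removal of dim probe sets, the mean over probe sets, leaving out probe sets with suffix x or s, and leaving out each array.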

Additional observations from a re-analysis of the deposited data

How the results depend on the processing

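The lower readings of Klf2 and Klf4 and the highest readings of Klf6 and Klf7 kept their direction under every alternative run, as did the 5 homing genes. The alternatives refit the same arrays on which the family was chosen. For the KLF readings this is thus a description and lends no support. No paired analysis was run, because the sources used here do not say which IL-10+ and IL-10- samples, if any, shared a sort. Any such pairing is not used in the p-values. Calls of single KLF readings that changed were those of Klf6 1447448_s_at, Klf12 1439847_s_at and 1455521_at, which were lost under 2 to 4 alternatives each, and of Klf3, Klf7, Klf10 and Klf13 readings that were gained. Klf10 differed by 0.27 without IL-10- replicate 4. Leaving out 1 array gave 3994 to 7427 probe sets higher and 4676 to 8192 lower, with 5 to 8 KLF readings higher and 6 to 9 lower. It gave 2 to 3 other KLF and SP genes higher and 0 to 2 lower, 2 to 3 cofactors higher and 5 to 8 lower, 0 to 3 ubiquitin ligases higher, 0 to 2 receptors raised by KLF2 loss higher, 1 to 2 cell cycle targets higher, 0 to 1 TGF-beta genes higher and 2 to 5 immediate-early genes lower. After median centring 0 ubiquitin ligases, 1 receptor raised by KLF2 loss and 1 cell cycle target rose. After quantile normalization 1 upstream factor rose, and without suffixes x and s 1 cofactor rose. With the mean over probe sets, 4 other KLF and SP genes, 2 upstream factors and 2 TGF-beta genes rose, while 1 ubiquitin ligase and 3 TGF-beta genes fell. Tgfbr1 then turned to a rise (0.46), as did Map3k2 (0.43), and Smurf2 changed sign without passing (0.085). Sin3a changed sign without suffixes x and s (0.0070). Leaving out an array, dim probe sets or suffixes x and s put fewer arrays or probe sets into the fit by construction. Median centring and quantile normalization used all of them. The cause of the changes was not tested.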

Other observations

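Immediate-early genes, the class of rapid response genes to which Klf4, Klf6 and Klf10 also belong, moved in both directions. Of 15, 5 rose and 4 fell in IL-10+ cells, with a median of 0.00. By brightest probe set, 8.37% of all genes rose and 22.9% fell. Btg2, which restrains proliferation, read 9.57 and 9.81 in IL-10+ cells against 7.99 and 8.04 in IL-10- cells on its brightest probe set (1.68, adjusted p = 2.40e-05 from limma) and differed by -0.06 on the other. Jun rose by 0.79 on its brightest probe set and fell by 0.36 on the other. Zfp36, which destabilises cytokine mRNA, fell by 0.54, and Fosb, an AP-1 subunit, also fell by 0.54. Of 7 cell cycle genes known as KLF targets in other cell types, 2 rose and 1 fell. Cdkn1b, the inhibitor p27 of cyclin-dependent kinases, rose on both of its probe sets, by 0.75 on the brighter one (9.58 and 9.72 against 8.76 and 9.05, adjusted p = 0.00128 from limma). Ccnd2, cyclin D2, rose by 0.21 on its brightest probe set (adjusted p = 0.172 after median centring, 0.207 without IL-10+ replicate 1, 0.177 without IL-10+ replicate 2 and 0.0576 without IL-10- replicate 3, from limma), and 5 of its 7 probe sets rose. Ccne1, cyclin E1, fell on both, by 0.69 on the brighter one.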
